A study of Mus musculus with 9 samples.

Results

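The DNA replication machinery was taken as 45 listed genes, which encode the proteins that license replication origins, unwind the DNA, copy it and supply the nucleotides. All 45 were found among the 24181 genes of the deposited counts, and 43 had enough reads to be tested. They are a list of gene names, applied with no threshold on measured values. Messenger RNA was measured in 3 types of primary mouse culture, with 3 biological replicate experiments of each type, 9 libraries in all. DRG neurons, sensory nerve cells of the dorsal root ganglia (DRG), were taken at embryonic day 13.5 and kept in culture for about 2 weeks. Oligodendrocyte progenitor cells (OPC), the precursors of the myelin-forming glia, were purified from cortex at postnatal days 6 to 9, with a culture time of 6 to 7 days. Astrocytes, the glia that support neurons, were obtained from cortex at postnatal days 1 to 3 and had about 21 days in culture, by which time they were confluent. Both glial types came from mice of either sex; for the DRG donors the sex is not given in the sources used here. Donor age, culture time and, for DRG neurons, the tissue changed together with the cell type, so their parts cannot be told apart. In bulk cultures, fewer dividing cells and less replication mRNA in each dividing cell likewise cannot be told apart.

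Eukaryotic cells copy their genome once in each division. In G1 phase the origin recognition complex (ORC) with Cdc6 and Cdt1 loads the ring-shaped MCM helicase onto DNA, a step called licensing, and geminin blocks it for the rest of the cycle. In S phase Cdc45 and the GINS complex join MCM to form the active helicase, the primase and polymerases copy both strands, and the sliding clamp PCNA holds the polymerases in place. Many of these genes are targets of E2F transcription factors, which act as the cell enters S phase. Neurons have left the cell cycle for good, OPC divide in the presence of mitogens, and cortical astrocytes divide in culture until contact slows them.

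Assigned reads ran from 30710093 to 53594210 per library. Levels are given as counts per 1000000 assigned reads (CPM), scaled between libraries by TMM factors, and group values as mean ± SD over 3 libraries. Each cell type carried its markers: 9 genes of all neurons added up to 38700 ± 12800 CPM in DRG neurons, 8 OPC genes to 5983 ± 879.5 CPM in OPC and 8 astrocyte genes to 7430 ± 948 CPM in Astrocytes. Of 8 sensory neuron genes 7 had reads in DRG neurons, summing to 4272 ± 466 CPM, and Prph had none in any library. Reads shared by isoforms appear to have been set aside in the counting, so 0 reads need not mean absent mRNA. RNA of other cell types was also read. Summed levels of 9 microglia genes were 18.9, 11.5 and 9.66 CPM in DRG neurons, 17.7, 56.1 and 209.7 CPM in OPC and 2811, 491 and 457 CPM in Astrocytes. Those of 7 fibroblast and mural genes were 474, 238 and 462 CPM in DRG neurons, 1.45, 1.36 and 2.07 CPM in OPC and 426, 4965 and 6238 CPM in Astrocytes. Every gene of these lists had reads in each cell type except Pdgfrb in OPC. Astrocytes replicate 1 thus stood apart from replicates 2 and 3, with more microglial and less fibroblast mRNA. Of the 8 OPC genes 7 were also read in Astrocytes, at 341, 1203 and 1311 CPM in all, and Lhfpl3 had no read there. By the test given below, 7 OPC genes were lower and 1 higher in DRG neurons than in OPC. Against Astrocytes 4 of them were lower and 2 higher in DRG neurons. The 8 astrocyte genes summed to 587 ± 251 CPM in DRG neurons and 1136 ± 146 CPM in OPC. Of these, 3 were higher and 4 lower in DRG neurons than in OPC. Between the glial types, 6 of the 8 OPC genes were higher in OPC than in Astrocytes and 2 had no call. Of the 8 astrocyte genes 5 were lower in OPC than in Astrocytes and 3 had no call. In DRG neurons 6 genes of Schwann and satellite glia, the glia of the ganglion, summed to 30.7, 15.7 and 60.0 CPM. The part of these other cells in the results was not tested, and values without the libraries concerned are given where they change a call.

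Replication genes were lowest in DRG neurons, highest in OPC and intermediate in Astrocytes. Summed over the 45 genes, DRG neurons held 488, 521 and 492 CPM, OPC 4347, 7132 and 6155 CPM and Astrocytes 1153, 2514 and 2372 CPM in replicates 1, 2 and 3. The 3 groups did not overlap, and the DRG neuron sum was 8.51% of that of OPC and 24.9% of that of Astrocytes. By the sign of the log2 fold change, 43 of the 43 tested genes were lower in DRG neurons than in OPC, as were 7724 of all 14848 genes tested. Against Astrocytes 41 were lower in DRG neurons (7949 of all genes), and 42 were higher in OPC than in Astrocytes (7825 of all genes). In every DRG neuron library 33 of the 45 genes reached 1 CPM and 19 reached 5 CPM.

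By edgeR's quasi-likelihood test, at an adjusted p below 0.05 over all 14848 genes tested, 39 members were lower in DRG neurons than in OPC and 0 were higher, where 31.1% of all tested genes were lower and 28.4% higher (59.5% in either direction). At an unadjusted p below 0.05, and with DESeq2, again 0 were higher. The median log2 fold change of the members was −3.83, against −0.08 for all genes. By at least 2-fold, 37 members were called lower, as were 3691 of all 14848 genes tested. DRG neurons against Astrocytes gave 35 members lower and 1 higher (Orc5), where 32.8% of all tested genes were lower and 27.4% higher (60.2% in either direction). The 35 include Cdc6 and Tyms, which had enough reads to be tested only through the OPC libraries. The members' median was −2.19, against −0.13 for all genes. OPC against Astrocytes gave 28 members higher and 0 lower, where 26.3% of all tested genes were higher and 25.5% lower (51.8% in either direction). At an unadjusted p below 0.05, and with DESeq2, 0 were lower as well. The members' median was 1.5, against 0.09 for all genes. The comparisons share libraries. Every member called lower in DRG neurons than in Astrocytes was also called lower than in OPC. Orc2, Orc3, Orc4 and Rfc1 had no call in any comparison.

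The libraries of DRG neurons lay wholly below those of OPC for 39 members and wholly above for 0, where 34.5% and 32.9% of all tested genes did so. Against Astrocytes they lay wholly below for 34 members and above for 1, with 37.3% and 31.7% of all tested genes. OPC libraries lay wholly above those of Astrocytes for 33 members and below for 1 (Orc3), with 31.8% and 29.5% of all tested genes.

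**Figure D1:**
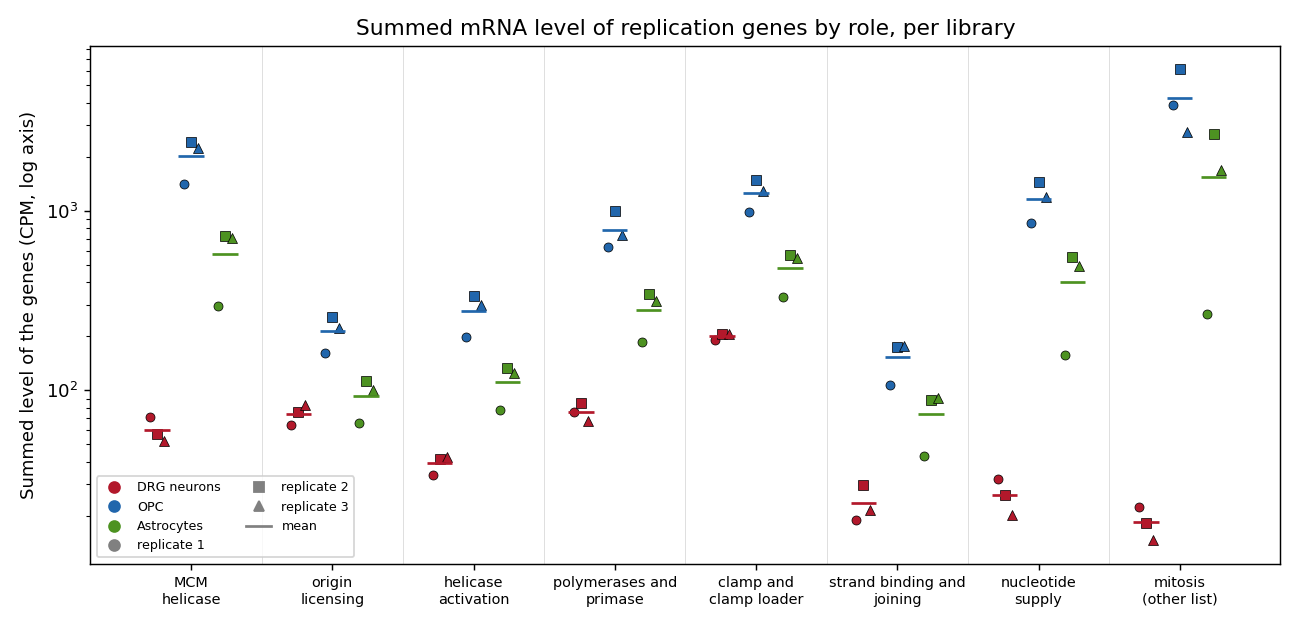
Summed mRNA level of the replication genes by role, and of 17 mitosis genes, in CPM on a log axis. Each point is 1 library, colours mark DRG neurons, OPC and Astrocytes from left to right, shapes mark the replicate and short lines the mean. The MCM helicase and nucleotide supply genes lay 33.7-fold and 44.5-fold higher in OPC than in DRG neurons by their means, the origin licensing genes 2.88-fold.

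The size of the difference varied by role. The 6 MCM helicase genes summed to 60.2 ± 9.75 CPM in DRG neurons, 2026 ± 541 CPM in OPC and 572 ± 241 CPM in Astrocytes (SD, n = 3 each). The 4 nucleotide supply genes summed to 26.2 ± 5.89 CPM in DRG neurons, 1166 ± 301 CPM in OPC and 401 ± 212 CPM in Astrocytes. These groups differed most between DRG neurons and OPC. At the other end, the 9 origin licensing genes summed to 74.0 ± 9.30 CPM in DRG neurons, 213 ± 48.9 CPM in OPC and 92.9 ± 24.1 CPM in Astrocytes. In between lay the 9 polymerase and primase genes at 76.2 ± 8.67 CPM in DRG neurons, 786 ± 188 CPM in OPC and 280.0 ± 83.3 CPM in Astrocytes, and the 6 helicase activation genes at 39.1 ± 4.77 CPM in DRG neurons, 278 ± 70.0 CPM in OPC and 112 ± 30.2 CPM in Astrocytes. The 5 genes for strand binding and joining summed to 23.4 ± 5.62 CPM in DRG neurons, 152 ± 39.1 CPM in OPC and 73.9 ± 26.7 CPM in Astrocytes, and the 6 clamp and clamp loader genes to 201 ± 8.15 CPM in DRG neurons, 1256 ± 252 CPM in OPC and 481 ± 132 CPM in Astrocytes. Single abundant genes weigh on these sums, such as Rfc1 (103.9 CPM) and Orc5 (48.5 CPM) in DRG neurons. Over the tested genes, the median log2 fold change in DRG neurons over OPC was −6.36 for nucleotide supply and −5.25 for the MCM helicase. It was −3.97 for helicase activation, −3.80 for clamp and clamp loader and −3.77 for polymerases and primase. For strand binding and joining it was −2.85, and for origin licensing −1.37.

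**Figure D2:**
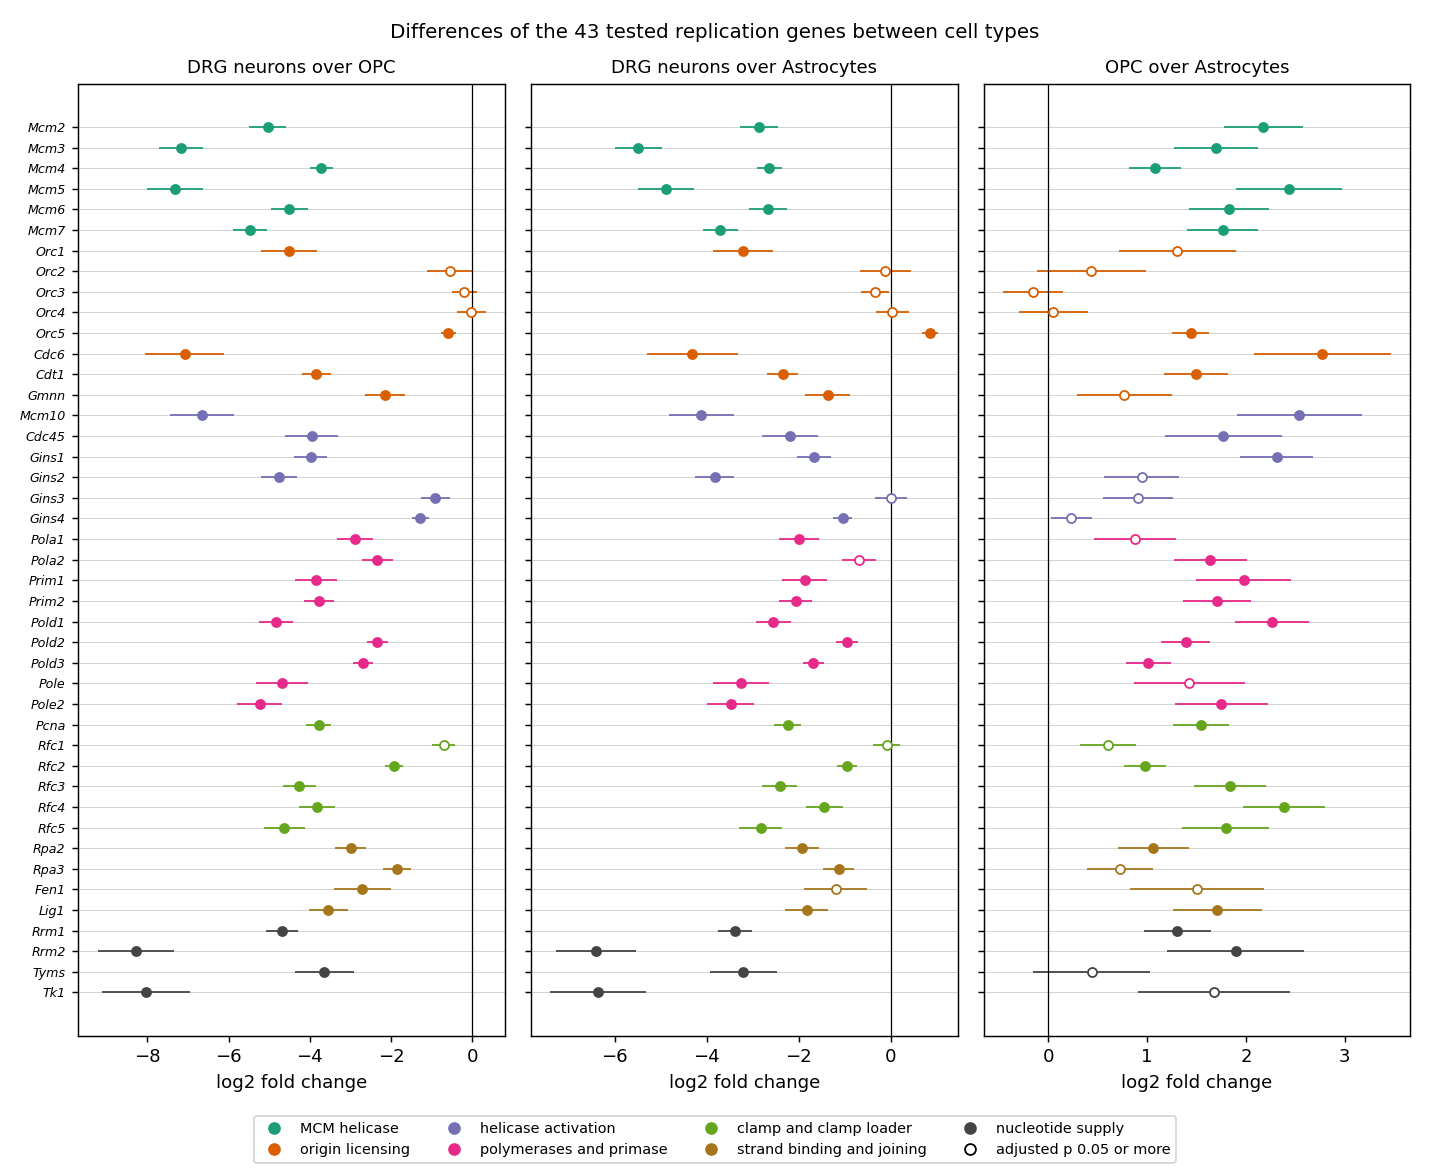
Log2 fold change of each of the 43 tested members, DRG neurons over OPC (left), DRG neurons over Astrocytes (middle) and OPC over Astrocytes (right), coloured by role. Bars are SE, open points have an adjusted p of 0.05 or more. The left panel holds no point right of 0, and the middle panel's clear exception is Orc5, at 0.85.

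Because E2F factors are known regulators of many of these genes, promoters were searched for the E2F words TTTCCCGC, TTTGGCGC, TTTCGCGC and TTTGCCGC on both strands. The windows were those of RefSeq on GRCm38.p6, from 250 bases before to 50 bases after a gene's start, and 37 of the 45 members had at least 1. A word was found for 15 of these 37 (40.5%), against 4.36% of the 11650 tested genes with a window and 2.26% of all 32851 windows. By role, 4 of 5 MCM genes, 4 of 8 licensing genes, 4 of 7 polymerase genes and 0 of 4 nucleotide supply genes had a word. Each window is set by the start of a transcript, and for some members, Mcm5, Orc1 and Cdc6 among them, the bases before that start lie at least partly inside the annotated span of the gene. The 250 bases before the start are shown for the 3 members where they lie outside that span and hold a word (Mcm6, Rfc3 and Gins3). For comparison they are shown for 2 members with no word in their windows, Rrm2, with one of the largest differences between DRG neurons and OPC, and Orc5, the member higher in DRG neurons than in Astrocytes. Capitals mark the E2F words, on either strand. The bases of Mcm6 are at chr1:128359706-128359955 on the minus strand, of Rfc3 at chr5:151651209-151651458 on the minus strand, of Gins3 at chr8:95633309-95633558 on the plus strand, of Rrm2 at chr12:24708004-24708253 on the plus strand and of Orc5 at chr5:22550339-22550588 on the minus strand. Each runs 5′ to 3′ on the strand of its gene.
Mcm6: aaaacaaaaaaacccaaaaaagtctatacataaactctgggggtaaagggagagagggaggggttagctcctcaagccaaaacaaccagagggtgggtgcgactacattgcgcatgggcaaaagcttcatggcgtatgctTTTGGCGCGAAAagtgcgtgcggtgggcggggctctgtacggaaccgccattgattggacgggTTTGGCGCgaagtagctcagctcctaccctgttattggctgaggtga
Rfc3: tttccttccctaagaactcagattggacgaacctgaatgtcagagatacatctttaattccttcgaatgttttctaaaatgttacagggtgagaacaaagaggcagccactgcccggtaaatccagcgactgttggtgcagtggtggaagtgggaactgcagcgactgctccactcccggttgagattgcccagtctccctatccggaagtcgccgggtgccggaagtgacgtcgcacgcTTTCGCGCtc
Gins3: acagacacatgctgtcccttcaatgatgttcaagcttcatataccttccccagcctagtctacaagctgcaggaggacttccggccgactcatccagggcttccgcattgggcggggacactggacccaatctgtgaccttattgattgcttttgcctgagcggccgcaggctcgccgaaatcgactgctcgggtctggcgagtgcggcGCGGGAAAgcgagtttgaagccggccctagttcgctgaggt
Rrm2: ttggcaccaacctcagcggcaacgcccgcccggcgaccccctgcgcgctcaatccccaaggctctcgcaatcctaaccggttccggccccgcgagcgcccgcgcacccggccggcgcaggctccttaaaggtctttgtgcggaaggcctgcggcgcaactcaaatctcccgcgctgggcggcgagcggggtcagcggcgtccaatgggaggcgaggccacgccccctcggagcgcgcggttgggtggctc
Orc5: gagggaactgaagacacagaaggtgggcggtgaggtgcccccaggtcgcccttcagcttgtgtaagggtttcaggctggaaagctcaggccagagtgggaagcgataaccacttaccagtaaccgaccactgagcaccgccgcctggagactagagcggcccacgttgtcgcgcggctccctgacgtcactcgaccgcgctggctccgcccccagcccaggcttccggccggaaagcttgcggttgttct
At the first place in Mcm6 a word on each strand overlapped, so the capitals there cover both. Of the 3 genes with a word shown, Gins3 differed little between DRG neurons and OPC (log2 −0.91), Mcm6 and Rfc3 more (−4.50 and −4.25). The 15 tested members with a word had a median log2 fold change of −4.50 in DRG neurons over OPC, 14 of them lower, and the 20 tested members with a window and no word had −3.71, 17 of them lower. Rrm2 and Tk1, 2 of the members with the largest differences, had no such word in their windows. Of the same windows, 62.2% of members held the word CCAAT, bound by NF-Y, against 42.3% of tested genes, and 13.5% held TTTGAA, the word of the CHR element, against 14.1%, both counted on either strand. A match describes these letters only, and no binding was measured.

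MCM helicase. All 6 subunits were lower in DRG neurons than in OPC and than in Astrocytes, and higher in OPC than in Astrocytes. Mcm5 had 2.88, 2.02 and 2.01 CPM in DRG neurons, 244, 421 and 439 CPM in OPC and 18.8, 100.1 and 85.3 CPM in Astrocytes. Its groups did not overlap, and Astrocytes replicate 1 was far below the other two Astrocytes libraries. In DRG neurons over OPC it differed most of the 6 subunits together with Mcm3, 160.1-fold (log2 −7.32, SE 0.679, adjusted p = 2.81e-05). Against Astrocytes Mcm5 was 29.6-fold lower (log2 −4.89, SE 0.610, adjusted p = 1.45e-04). Mcm6 reached 23.0, 14.7 and 13.2 CPM in DRG neurons, 275, 482 and 398 CPM in OPC and 51.7, 121 and 152 CPM in Astrocytes. By its mean it had the highest level per length of the subunits in each cell type, with no overlap between groups. The log2 fold change of Mcm6 was −4.50 in DRG neurons over OPC (SE 0.454, adjusted p = 4.38e-05) and 1.83 in OPC over Astrocytes (SE 0.404, adjusted p = 0.00473). Mcm4 had 21.0, 17.9 and 18.5 CPM in DRG neurons, 205, 337 and 211 CPM in OPC and 81.9, 143 and 132 CPM in Astrocytes. It differed least of the 6 between DRG neurons and OPC, still 13.1-fold (log2 −3.72, SE 0.292, adjusted p = 1.29e-05), and its groups did not overlap. For Mcm2, Mcm3 and Mcm7 the log2 fold changes in DRG neurons over OPC were −5.04, −7.18 and −5.47. In OPC over Astrocytes Mcm2, Mcm3 and Mcm7 had 2.18, 1.69 and 1.76. Without Astrocytes replicate 1 and OPC replicate 3 that of Mcm3 was 1.11 and no longer passed (adjusted p = 0.0635), while those of Mcm2 and Mcm5 were 1.54 and 1.69.

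Subunits of the MCM helicase, of the clamp loader and of GINS (Gins2 to Gins4) were spread wider in DRG neurons than in either glial type. This is a description with no test. Levels per length (CPM per 1000 transcript bases) are given only for the 32 members counted through 1 transcript. Exons that overlap another gene can still distort them, as over 70.7% of the exon length of Gins2. In Rfc2, Rfc5, Pole2, Rfc4, Orc1 and Mcm7 a single other gene overlapped 19.1%, 15.4%, 14.4%, 13.4%, 11.9% and 10.8%. The highest of the 6 MCM genes exceeded the lowest by 9.31, 8.46 and 14.8 times in DRG neurons, 1.65, 1.76 and 2.36 times in OPC and 4.10, 1.53 and 2.08 times in Astrocytes. These ratios in DRG neurons lay above all those of both glial types. In DRG neurons Mcm6 (5.84 ± 1.82 CPM per 1000 bases) and Mcm4 (5.33 ± 0.456) led, within each other's spread, and Mcm5 (0.681 ± 0.147) and Mcm3 (0.633 ± 0.278) were lowest, also within each other's spread. In OPC Mcm6 (132 ± 35.8), Mcm7 (122 ± 28.1), Mcm2 (114 ± 36.9), Mcm5 (109 ± 31.9) and Mcm3 (91.3 ± 26.9) differed by less than their SDs from neighbour to neighbour, and Mcm4 was lowest (70.0 ± 20.8). In the clamp loader, the highest of Rfc1 to Rfc5 exceeded the lowest by 21.2, 16.7 and 20.3 times in DRG neurons, 2.93, 3.29 and 3.89 times in OPC and 6.51, 2.22 and 2.60 times in Astrocytes.

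**Figure D3:**
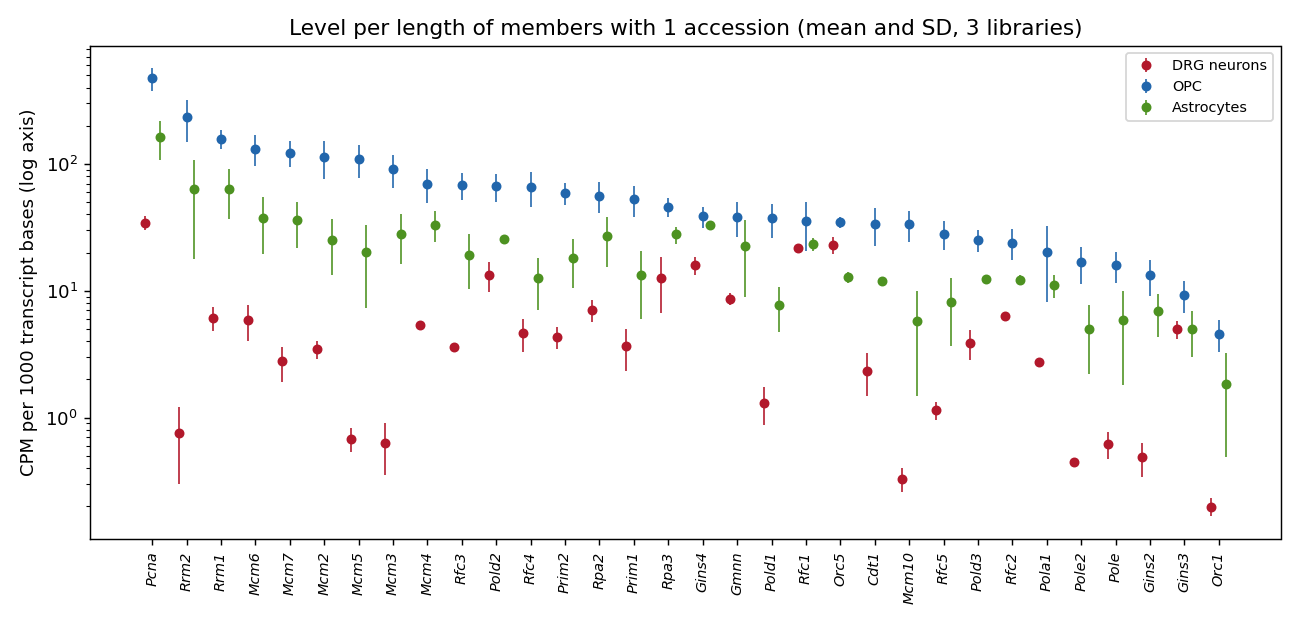
Level per length of the 32 members counted through 1 transcript, in CPM per 1000 transcript bases on a log axis, mean with SD over 3 libraries for DRG neurons, OPC and Astrocytes. Pcna led in all 3 cell types, and in DRG neurons it was followed by Orc5 and Rfc1, in OPC by Rrm2 and Rrm1.

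Origin licensing. Of 8 tested genes, 5 were lower in DRG neurons than in OPC, and 4 lower and 1 higher than in Astrocytes; OPC were higher than Astrocytes for 3. Orc2, Orc3, Orc4 and Orc5 differed least, and Cdc6, Orc1 and Cdt1 most. Orc5 had 42.4, 46.2 and 57.0 CPM in DRG neurons, 65.1, 80.5 and 73.8 CPM in OPC and 24.1, 29.9 and 26.8 CPM in Astrocytes. Orc5 (chr5:22486480-22550338), an ORC subunit, was the licensing gene with the highest level per length in DRG neurons and over all libraries, and its 3 groups were separate, with OPC highest and Astrocytes lowest. It was 1.80-fold above Astrocytes in DRG neurons (log2 0.85, SE 0.182, adjusted p = 0.00317). In DRG neurons over OPC it was lower (log2 −0.59, SE 0.181, adjusted p = 0.0189); the call was lost without DRG replicate 1 (0.0552), DRG replicate 2 (0.0700), OPC replicate 2 (0.0671) or OPC replicate 3 (0.185), each an adjusted p, and with RLE scaling (0.0734). Orc4 had 5.48, 6.57 and 7.59 CPM in DRG neurons, 8.88, 7.39 and 3.63 CPM in OPC and 5.47, 6.96 and 6.77 CPM in Astrocytes. Orc3 had 1.62, 2.42 and 2.74 CPM in DRG neurons, 2.66, 2.75 and 2.36 CPM in OPC and 3.03, 2.78 and 2.85 CPM in Astrocytes. Orc2 had 1.76, 2.97 and 2.81 CPM in DRG neurons, 1.85, 5.82 and 3.42 CPM in OPC and 1.07, 3.44 and 3.70 CPM in Astrocytes. For these ORC subunits the groups overlapped in every comparison but those of Orc3 with Astrocytes, whose libraries were all above the rest by small steps. None passed, with log2 fold changes in DRG neurons over OPC of −0.02 for Orc4, −0.19 for Orc3 and −0.55 for Orc2 (SE 0.353, 0.303 and 0.555). These 3 rest on reads specific to single isoforms, and the exons of Orc2 overlap those of Nif3l1 on the opposite strand over 24.0% of their length.

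The loading factors, Orc1 and geminin were lower in DRG neurons than in OPC. Cdc6 had 0, 0.0210 and 0.0258 CPM in DRG neurons, 1.30, 3.68 and 3.15 CPM in OPC and 0.0940, 0.499 and 0.608 CPM in Astrocytes. Cdc6, the ATPase that recruits Cdt1 and MCM to ORC, had 2 isoform-specific reads in all 3 DRG neuron libraries together and was separate in all groups. Its levels and ratios are thus not those of the whole gene. By counts it was higher than in DRG neurons by a ratio of 158 (43.5 to 1311) in OPC and 21.1 (5.54 to 179.6) in Astrocytes, with 95% intervals that cover counting error only. The test gave adjusted p = 2.50e-04 and 0.00448 in DRG neurons over OPC and over Astrocytes. Cdc6 passed the read filter only through the OPC libraries, where it was high. With only the DRG neuron and Astrocytes libraries in the fit, it did not pass the filter and was not tested. Cdt1 had 3.89, 7.30 and 4.21 CPM in DRG neurons, 45.7, 92.0 and 82.9 CPM in OPC and 23.9, 27.6 and 27.1 CPM in Astrocytes. Cdt1, which brings MCM to origins, was 14.3-fold below OPC in DRG neurons (log2 −3.84, SE 0.355, adjusted p = 2.81e-05), and its groups did not overlap. In OPC over Astrocytes Cdt1 was higher (log2 1.49, SE 0.323, adjusted p = 0.00433), and not without Astrocytes replicate 1 and OPC replicate 3 (log2 1.18, adjusted p = 0.0541). Orc1, the ORC subunit known from human cells to be degraded in S phase, was below OPC in DRG neurons (log2 −4.52, SE 0.683, adjusted p = 4.37e-04) and than in Astrocytes (log2 −3.21, SE 0.650, adjusted p = 0.00229). Its DRG neurons over Astrocytes value was −2.59 without Astrocytes replicate 2. Its higher level in OPC than in Astrocytes missed the threshold (log2 1.31, SE 0.590, adjusted p = 0.0919) and passed without Astrocytes replicate 2 (log2 1.93, adjusted p = 0.0312). Gmnn, the geminin gene, had 8.19, 9.30 and 7.54 CPM in DRG neurons, 24.7, 46.8 and 39.1 CPM in OPC and 7.07, 32.1 and 25.9 CPM in Astrocytes. DRG neurons lay below OPC (log2 −2.14, SE 0.50, adjusted p = 0.00492). Astrocytes replicate 1 was no higher than DRG neurons, and the call in DRG neurons over Astrocytes (log2 −1.38, SE 0.489, adjusted p = 0.0348) ended in 8 of 19 alternatives, among them leaving out any 1 DRG neuron library (adjusted p 0.0722 to 0.0977), Astrocytes replicate 2 (0.126) or 3 (0.0922), or OPC replicate 3 (0.0635). Orc6 was not tested, at 0, 0.0842 and 0.0775 CPM in DRG neurons, 0.0894, 0.326 and 0.216 CPM in OPC and 0.0752, 0.119 and 0.0829 CPM in Astrocytes, all from isoform-specific reads.

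**Figure D4:**
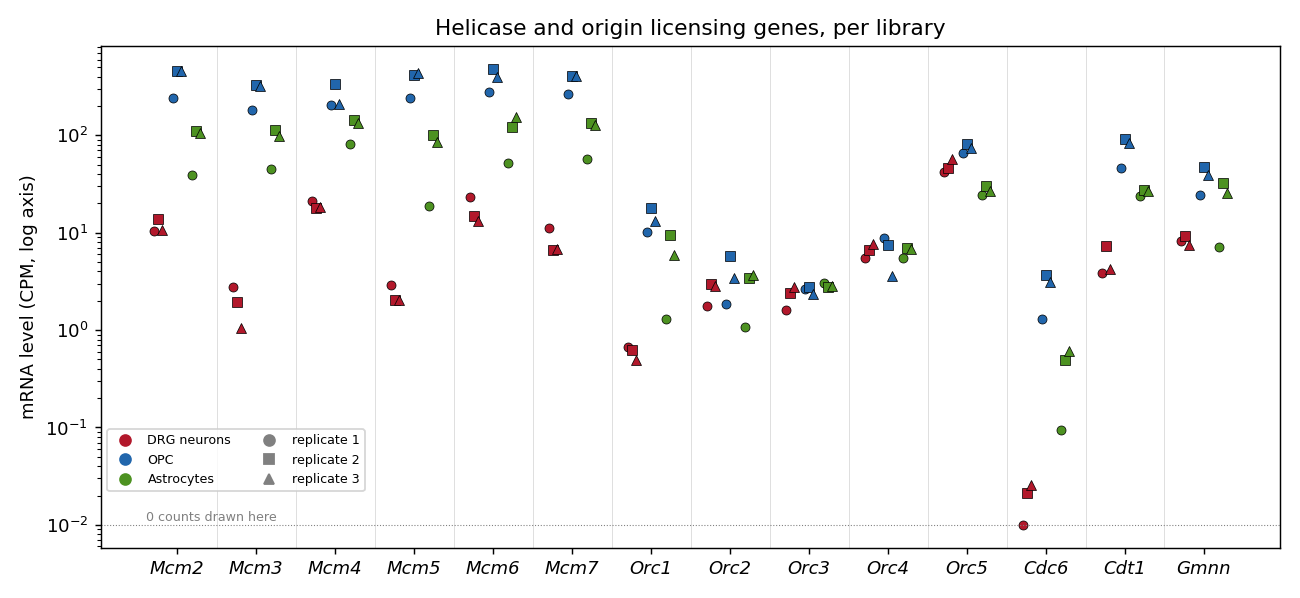
mRNA level of helicase and origin licensing genes in CPM on a log axis, 1 point per library, DRG neurons, OPC and Astrocytes from left to right within each gene and shapes for the replicate. The dotted line marks 0 reads. Orc5 is the gene shown whose DRG neuron points lie above all Astrocytes points, and the groups of Orc4 overlap, while DRG neurons lie far below OPC for Mcm5 and Cdc6.

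Helicase activation. All 6 genes were lower in DRG neurons than in OPC, 5 were lower than in Astrocytes, and 3 were higher in OPC than in Astrocytes (Mcm10, Cdc45 and Gins1). Mcm10 had 1.22, 1.37 and 0.878 CPM in DRG neurons, 83.5, 148 and 119 CPM in OPC and 3.78, 32.9 and 23.6 CPM in Astrocytes. Mcm10, needed for the loaded helicase to start unwinding, was separate in all groups and differed most, 101-fold between DRG neurons and OPC (log2 −6.65, SE 0.778, adjusted p = 1.01e-04). It was also higher in OPC over Astrocytes (log2 2.54, SE 0.634, adjusted p = 0.00867), with log2 1.88 without Astrocytes replicate 1 and OPC replicate 3. The GINS genes Gins4 and Gins3 differed least. Gins4 had 17.6, 24.2 and 22.4 CPM in DRG neurons, 40.8, 56.6 and 58.5 CPM in OPC and 48.0, 40.2 and 44.7 CPM in Astrocytes. Gins3 had 11.5, 11.3 and 14.8 CPM in DRG neurons, 19.3, 31.4 and 19.9 CPM in OPC and 6.87, 15.5 and 15.3 CPM in Astrocytes. Both were lower in DRG neurons than in every OPC library, and OPC overlapped Astrocytes for Gins4. Gins4, with the highest level per length of this group, was 2.43-fold below OPC in DRG neurons (log2 −1.28, SE 0.210, adjusted p = 7.01e-04) and 2.07-fold lower than in Astrocytes (log2 −1.05, SE 0.209, adjusted p = 0.00212). Gins3 passed narrowly in DRG neurons over OPC (log2 −0.91, SE 0.353, adjusted p = 0.0495), which ended in 12 of 19 alternatives, with adjusted p 0.0529 or 0.0600 without Astrocytes replicate 2 or 3, 0.117, 0.135 or 0.0671 without DRG replicate 1, 2 or 3, and 0.0522, 0.180 or 0.134 without OPC replicate 1, 2 or 3. Against Astrocytes Gins3 had log2 0.00 (adjusted p = 1.00), and OPC over Astrocytes had log2 0.91 (adjusted p = 0.0556).

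Gins2 had 1.25, 2.32 and 2.12 CPM in DRG neurons, 33.0, 59.0 and 63.6 CPM in OPC and 15.5, 34.4 and 31.1 CPM in Astrocytes. Gins2 was 27.2-fold below OPC in DRG neurons (log2 −4.77, SE 0.443, adjusted p = 2.86e-05) and separate from both glial types, which overlapped. Its OPC over Astrocytes value (log2 0.94, SE 0.378, adjusted p = 0.0617) passed without OPC replicate 1 (log2 1.20, adjusted p = 0.0316). Gins2 exons overlap those of Gse1 on the opposite strand over 70.7% of their length, and the strand setting of the counting is not given in the sources used here, so reads of the pair may be mixed. Gins1, counted through isoform-specific reads, had log2 −3.98 in DRG neurons over OPC and 2.31 in OPC over Astrocytes (adjusted p = 4.47e-05 and 9.30e-04). Cdc45, which binds MCM together with GINS, was also counted through isoform-specific reads. It had log2 −3.96 in DRG neurons over OPC and 1.77 in OPC over Astrocytes (adjusted p = 7.36e-04 and 0.0321). The OPC over Astrocytes call of Cdc45 ended without OPC replicate 2 (0.0808), OPC replicate 3 (0.119) or Astrocytes replicate 3 (0.0504), each an adjusted p. Among Gins2, Gins3 and Gins4 the highest exceeded the lowest per length by 40.7, 30.2 and 30.5 times in DRG neurons, 3.96, 3.37 and 5.48 times in OPC and 13.1, 4.86 and 5.46 times in Astrocytes. Gins4 was the highest in all 9 libraries. The lowest was Gins2 in DRG neurons and Gins3 in both glial types.

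Polymerases and primase. All 9 genes were lower in DRG neurons than in OPC, 8 were lower than in Astrocytes and 7 were higher in OPC than in Astrocytes. Pole2 had 0.778, 0.800 and 0.697 CPM in DRG neurons, 18.7, 36.8 and 30.3 CPM in OPC and 3.20, 12.3 and 9.95 CPM in Astrocytes. Pole2, a subunit of the leading-strand polymerase epsilon, had separate groups and the largest difference of the 9, 37.5-fold (log2 −5.23, SE 0.553, adjusted p = 5.78e-05). For Pole2, OPC over Astrocytes had log2 1.75, SE 0.468, adjusted p = 0.0120, and log2 1.16 without Astrocytes replicate 1 and OPC replicate 3. Pold2 had 17.4, 28.2 and 19.8 CPM in DRG neurons, 79.1, 121 and 131 CPM in OPC and 42.5, 41.5 and 42.4 CPM in Astrocytes. Pold2, a small subunit of polymerase delta, had the highest level per length of the 9 and, with Pola2, the smallest difference from OPC (log2 −2.34, SE 0.254, adjusted p = 6.66e-05), and its 3 Astrocytes libraries were nearly equal. Pole had 3.21, 5.07 and 5.01 CPM in DRG neurons, 101, 149.8 and 91.0 CPM in OPC and 10.03, 67.8 and 49.3 CPM in Astrocytes. Pole, the catalytic subunit of polymerase epsilon, was separate in all groups and 25.7-fold below OPC in DRG neurons (log2 −4.68, SE 0.646, adjusted p = 2.61e-04). Its OPC over Astrocytes value missed the threshold (log2 1.43, SE 0.562, adjusted p = 0.0583), and passed without Astrocytes replicate 1 (log2 0.96, adjusted p = 0.0278) or 2 (log2 1.95, adjusted p = 0.0283).

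Pola1 had 14.3, 14.9 and 15.2 CPM in DRG neurons, 109.9, 174 and 42.9 CPM in OPC and 45.0, 65.7 and 66.9 CPM in Astrocytes. In Pola1, the catalytic subunit of the polymerase that starts each new strand, OPC replicate 3 was below all Astrocytes libraries, while DRG neurons were below both. It was 7.36-fold below OPC in DRG neurons (log2 −2.88, SE 0.443, adjusted p = 4.81e-04). Pola1 in OPC over Astrocytes did not pass (log2 0.88, SE 0.415, adjusted p = 0.104) and did so without OPC replicate 3 (log2 1.11, adjusted p = 0.00934). Pola2 had 2.91, 4.59 and 3.02 CPM in DRG neurons, 11.8, 21.4 and 20.2 CPM in OPC and 3.63, 6.48 and 7.02 CPM in Astrocytes. Pola2, its partner subunit, was counted through isoform-specific reads, and DRG neurons overlapped Astrocytes. In DRG neurons it lay below OPC (log2 −2.34, SE 0.380, adjusted p = 6.62e-04), and against Astrocytes it missed the threshold and passed with replicate 1 left out or scaled by library size alone (log2 −0.70, SE 0.366, adjusted p = 0.126; log2 −0.95, adjusted p = 0.0399 without it). Its OPC over Astrocytes call ended without Astrocytes replicate 1 and OPC replicate 3 (adjusted p = 0.0508). The primase genes Prim1 and Prim2, which make the RNA primers, had log2 −3.85 and −3.77 in DRG neurons over OPC and 1.98 and 1.71 in OPC over Astrocytes. Those of Pold1, the catalytic subunit of polymerase delta, and its subunit Pold3 were −4.82 and −2.70 in DRG neurons over OPC, and 2.26 and 1.01 in OPC over Astrocytes. These 8 values passed the threshold.

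Clamp and clamp loader. Of 6 genes, 5 were lower in DRG neurons than in OPC and than in Astrocytes, and 5 were higher in OPC than in Astrocytes; Rfc1 had no call in any. Pcna had 45.8, 51.7 and 59.0 CPM in DRG neurons, 554, 828 and 769.5 CPM in OPC and 149, 299.9 and 288 CPM in Astrocytes. Pcna (chr2:132249286-132253180), the sliding clamp, had the highest level per length of all members in each cell type, with separate groups. It was 13.8-fold below OPC in DRG neurons (log2 −3.78, SE 0.311, adjusted p = 1.57e-05) and 2.92-fold above Astrocytes in OPC (log2 1.55, SE 0.285, adjusted p = 0.00188). Rfc5 had 2.88, 3.81 and 2.89 CPM in DRG neurons, 56.2, 93.0 and 87.9 CPM in OPC and 8.67, 32.4 and 27.2 CPM in Astrocytes. Rfc5, a small subunit of the loader that opens PCNA, was separate in all groups and differed 24.7-fold between DRG neurons and OPC (log2 −4.63, SE 0.499, adjusted p = 6.39e-05). Rfc5 in OPC over Astrocytes had log2 1.80, and 1.17 without Astrocytes replicate 1 and OPC replicate 3, where Rfc3 had 1.84 and 1.25. Rfc1 had 104, 108 and 99.6 CPM in DRG neurons, 175, 235 and 95.1 CPM in OPC and 96.0, 117 and 120.1 CPM in Astrocytes. In Rfc1, the large subunit, all groups overlapped, and OPC replicate 3 was the lowest of the 9 libraries. Its differences did not pass (log2 −0.70, SE 0.286, adjusted p = 0.0599 in DRG neurons over OPC). Without OPC replicate 3 they did, in DRG neurons over OPC (log2 −0.74, adjusted p = 0.00977) and in OPC over Astrocytes (log2 0.74, adjusted p = 0.0131). Rfc2, Rfc3 and Rfc4 had log2 −1.93, −4.25 and −3.83 in DRG neurons over OPC; the exons of Rfc2, Rfc4 and Rfc5 overlap opposite-strand genes over 19.1%, 13.4% and 15.4% of their length. The OPC over Astrocytes call of Rfc2 (log2 0.97, SE 0.212, adjusted p = 0.00441) ended without Astrocytes replicate 1 and OPC replicate 3 (adjusted p = 0.0736). Per length, Rfc1 was the highest loader gene in all 3 DRG neuron libraries, at 21.9 ± 0.915 CPM per 1000 bases against 1.14 ± 0.191 for Rfc5. In OPC Rfc1 had 35.5 ± 14.8 and Rfc5 28.3 ± 7.12 CPM per 1000 bases.

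Strand binding and joining. The 4 tested genes were lower in DRG neurons than in OPC, 3 were lower than in Astrocytes and 2 higher in OPC than in Astrocytes. Rpa2 had 9.98, 14.2 and 14.2 CPM in DRG neurons, 69.8, 117 and 119 CPM in OPC and 25.0, 58.7 and 63.0 CPM in Astrocytes. Rpa2, a subunit of the protein that coats single-stranded DNA, had separate groups and was 7.95-fold below OPC in DRG neurons (log2 −2.99, SE 0.385, adjusted p = 1.74e-04). Its OPC over Astrocytes call (log2 1.06, SE 0.360, adjusted p = 0.0337) was no longer called without OPC replicate 2 (0.0960), OPC replicate 3 (0.152) or Astrocytes replicate 1 (0.0550), each an adjusted p. Rpa3 had 6.77, 13.1 and 5.65 CPM in DRG neurons, 24.8, 33.3 and 34.4 CPM in OPC and 15.5, 20.9 and 19.5 CPM in Astrocytes. Rpa3, the smallest subunit of that protein, had the smallest difference from OPC (log2 −1.86, SE 0.340, adjusted p = 0.00130), with DRG replicate 2 above the other two DRG neuron libraries and no overlap between groups. Its call in DRG neurons over Astrocytes (log2 −1.13, SE 0.334, adjusted p = 0.0155) ended without DRG replicate 1 (0.0532) or 3 (0.0576). In OPC over Astrocytes Rpa3 did not pass (log2 0.72, SE 0.330, adjusted p = 0.0942), and did so without DRG replicate 2 (log2 0.73, adjusted p = 0.0368). Lig1 had 1.52, 1.03 and 0.723 CPM in DRG neurons, 9.43, 15.0 and 13.6 CPM in OPC and 1.86, 5.34 and 4.45 CPM in Astrocytes. Lig1, the ligase that seals the fragments of the lagging strand, was separate in all groups and 11.7-fold below OPC in DRG neurons (log2 −3.54, SE 0.488, adjusted p = 2.58e-04). Fen1 had 0.609, 1.39 and 1.01 CPM in DRG neurons, 3.11, 8.20 and 8.42 CPM in OPC and 0.527, 2.94 and 3.51 CPM in Astrocytes. Fen1, the nuclease that trims these fragments, was below OPC in DRG neurons (log2 −2.70, SE 0.711, adjusted p = 0.00914), and Astrocytes replicate 1 lay below all 3 DRG neuron libraries. Against Astrocytes Fen1 had log2 −1.20, SE 0.685, adjusted p = 0.158, and log2 −1.68, adjusted p = 0.0187 without Astrocytes replicate 1. Fen1 and Lig1 rest on isoform-specific reads, and exons of Fen1 overlap the antisense gene Gm10143 over 78.8% of their length. Lig1 passed in OPC over Astrocytes (log2 1.71, SE 0.450, adjusted p = 0.0111), but not without Astrocytes replicate 1 and OPC replicate 3 (adjusted p = 0.0640). Rpa1, the large subunit of the single-strand binding protein, was not tested: it had 1 isoform-specific read over the DRG neuron libraries, 32 over those of OPC and 12 over those of Astrocytes.

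Nucleotide supply. The 4 genes were lower in DRG neurons than in both glial types, and Rrm1 and Rrm2 were higher in OPC than in Astrocytes. Rrm2 had 2.81, 0.905 and 1.29 CPM in DRG neurons, 322, 692 and 530.0 CPM in OPC and 25.3, 209 and 181 CPM in Astrocytes. Rrm2 (chr12:24708254-24714146), the small subunit of ribonucleotide reductase, which makes deoxynucleotides, had separate groups. Its fitted difference was 313-fold between DRG neurons and OPC (log2 −8.29, SE 0.936, adjusted p = 8.28e-05) and 84.2-fold between DRG neurons and Astrocytes (log2 −6.40, SE 0.865, adjusted p = 2.31e-04), the largest of the members beside that of Tk1. Rrm2 passed narrowly in OPC over Astrocytes (log2 1.90, SE 0.696, adjusted p = 0.0453), and did not in 10 of 19 alternatives, including without OPC replicate 2 (0.124), OPC replicate 3 (0.114), Astrocytes replicate 3 (0.0730), DRG replicate 2 (0.0504) or DRG replicate 3 (0.0589), each an adjusted p. Rrm1, the large subunit, had 29.1, 25.2 and 18.8 CPM in DRG neurons, 516, 732 and 639 CPM in OPC and 131, 331 and 303 CPM in Astrocytes. It was 25.8-fold below OPC in DRG neurons (log2 −4.69, SE 0.388, adjusted p = 1.61e-05). Per length, Rrm2 over Rrm1 stood at 0.176, 0.0655 and 0.125 in DRG neurons, at 1.14, 1.72 and 1.51 in OPC and at 0.351, 1.15 and 1.09 in Astrocytes. The ratio in DRG neurons lay below that of every glial library. Tk1 had 0.0677, 0.0210 and 0.155 CPM in DRG neurons, 12.0, 25.0 and 27.6 CPM in OPC and 0.959, 9.81 and 9.48 CPM in Astrocytes. Tk1, the S-phase thymidine kinase, had 2, 1 and 6 reads in the DRG neuron libraries, and its groups were separate. Its fitted log2 fold change in DRG neurons over OPC, −8.03 (SE 1.09, adjusted p = 2.32e-04), was −8.97 without DRG replicate 3, and that over Astrocytes, −6.36, was then −7.28. Tyms had 0.102, 0.0632 and 0.0516 CPM in DRG neurons, 0.626, 1.16 and 0.938 CPM in OPC and 0.169, 0.974 and 0.885 CPM in Astrocytes. Tyms, thymidylate synthase, was below OPC in DRG neurons (log2 −3.64, SE 0.729, adjusted p = 0.00216) and than in Astrocytes (log2 −3.20, SE 0.730, adjusted p = 0.00433), and OPC overlapped Astrocytes. Tk1 and Tyms are counted through isoform-specific reads, so their levels are not those of the whole gene. Tyms, like Cdc6, passed the read filter only through the OPC libraries. With only the DRG neuron and Astrocytes libraries in the fit, Tyms was not tested.

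Astrocyte replicates. The 3 Astrocytes libraries were not alike in these genes. The summed level was 1153, 2514 and 2372 CPM in replicates 1, 2 and 3. Replicate 1 had the lowest level of the 3 for 39 of the 43 tested members and the highest for 3. Of all 14848 genes tested, 6305 were lowest and 6094 highest in replicate 1. The median log2 ratio of replicate 1 to the mean of replicates 2 and 3 was −1.27 for the members and −0.02 for all genes tested. At least 2-fold lower in replicate 1 were 28 members (65.1%), against 10.8% of all genes tested. Replicates 2 and 3 were close, with a median log2 ratio of 0.10. The ratio of replicate 1 was lowest for Tk1 (−3.27), Rrm2 (−2.94) and Mcm10 (−2.87). It was near 0 for Gins4 (0.18), Orc3 (0.10), Pold2 (0.02), Pold3 (0.01) and Cdt1 (−0.20). By role, the median ratio ran from −2.56 for nucleotide supply to −0.96 for polymerases and primase. A single library against 2 others allows no test. The microglia genes were higher and the fibroblast and mural genes lower in the same replicate, as given above. The 8 OPC genes were lower there too, with 341, 1203 and 1311 CPM and a median log2 ratio of −1.50 over the list, and 8 astrocyte markers summed to 8348, 6453 and 7489 CPM. What part these had in the lower replication genes was not tested.

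Members that differed more between DRG neurons and OPC also tended to be lower in Astrocytes replicate 1, 2 measures with no library in common. Across the 43 members Pearson's r was 0.67 and Spearman's rho 0.61, and across all 14848 genes 0.097 and 0.12. The genes of a pathway are not independent of each other, so these are descriptions. Without Astrocytes replicate 1, 37 members were lower in DRG neurons, and 27 of the 28 calls of OPC over Astrocytes were kept.

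**Figure D5:**
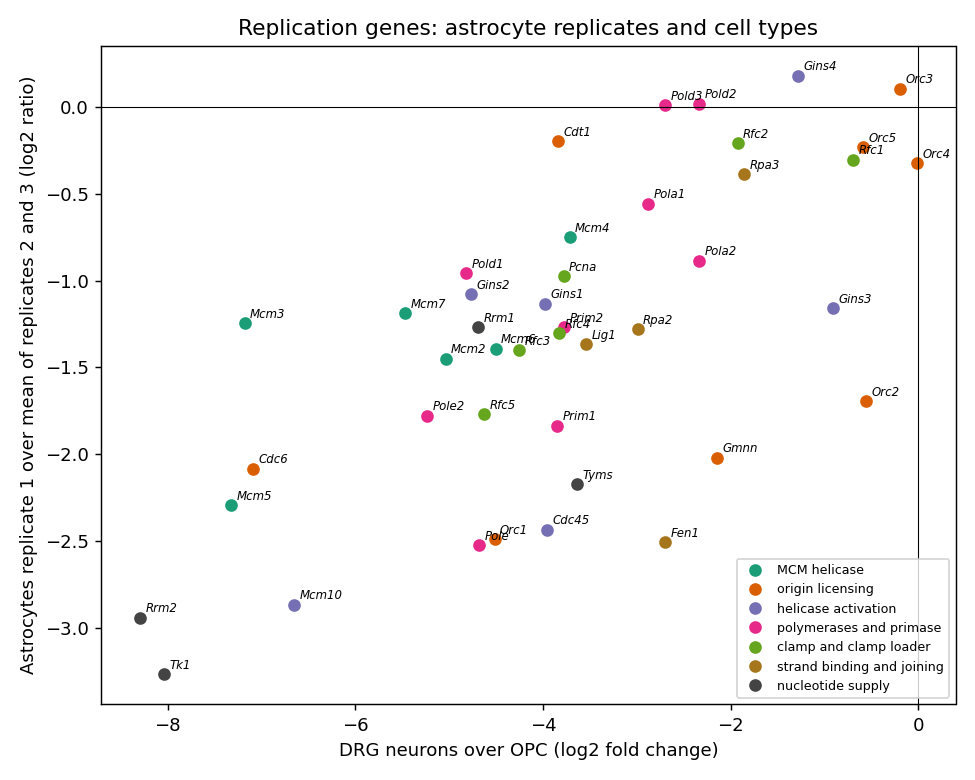
Log2 ratio of Astrocytes replicate 1 to the mean of replicates 2 and 3 (vertical) against the log2 fold change in DRG neurons over OPC (horizontal), 1 point per tested member, coloured by role. Most points lie below 0 on both axes, and Rrm2, Tk1 and Mcm10, low on the vertical axis, also lie far left.

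OPC replicates differed less. The members' median log2 ratio of replicate 1 to replicates 2 and 3 was −0.67, against 0.00 for all genes. Among the tested members replicate 1 was the lowest of the 3 except for Orc3, Orc4, Pola1, Pold3, Pole and Rfc1, where replicate 3 was. How many of all genes were lowest in OPC replicate 1 was not counted. In the DRG neurons the members' median log2 ratio of replicate 1 to replicates 2 and 3 was −0.07. With Astrocytes replicate 1 and OPC replicate 1 both left out, 33 members were higher in OPC than in Astrocytes, and with Astrocytes replicate 1 and OPC replicate 3 left out, 23 were.

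Other genes of the pathway were read from 4 lists. Of 26 tested replisome partners, which help origins fire, load clamps or protect forks, 25 were lower in DRG neurons than in OPC and 18 than in Astrocytes, and 13 were higher in OPC than in Astrocytes. These are 96.2%, 69.2% and 50.0% of the list, where all tested genes had 31.1%, 32.8% and 26.3%. The median log2 fold changes were −2.06 in DRG neurons over OPC, −1.32 in DRG neurons over Astrocytes and 0.90 in OPC over Astrocytes. Dscc1 had 0.0338, 0.147 and 0.129 CPM in DRG neurons, 13.1, 25.8 and 19.9 CPM in OPC and 0.809, 4.44 and 3.79 CPM in Astrocytes. Dscc1, part of an alternative clamp loader used in sister chromatid cohesion, had the largest fold, 176-fold between DRG neurons and OPC (log2 −7.46, SE 0.814, adjusted p = 6.81e-05). Ticrr had 0.575, 0.358 and 0.284 CPM in DRG neurons, 58.1, 76.8 and 50.1 CPM in OPC and 1.84, 20.4 and 13.6 CPM in Astrocytes. Ticrr, needed to load Cdc45 at origins, was 153-fold lower (log2 −7.26, SE 0.880, adjusted p = 1.23e-04), and in both genes Astrocytes replicate 1 was the lowest glial library. The smallest called differences were those of Donson, a fork protection factor (log2 −1.36, SE 0.304, adjusted p = 0.00395) and Mcm9, a helicase of recombination repair (log2 −1.36, SE 0.242, adjusted p = 0.00112).

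Of 19 tested genes of S-phase control (cyclins, kinases, E2F and retinoblastoma proteins), 14 were lower in DRG neurons than in OPC. Against Astrocytes 11 were lower and 2 higher in DRG neurons, and OPC over Astrocytes gave 12 higher and 1 lower. The shares lower in DRG neurons were 73.7% and 57.9%, beside 31.1% and 32.8% of all tested genes, and the share higher in OPC was 63.2%, beside 26.3%. Against Astrocytes, 10.5% of the list were higher in DRG neurons, beside 27.4%, and 5.26% lower in OPC, beside 25.5%. Ccne1 had 28.5, 37.7 and 30.6 CPM in DRG neurons, 40.8, 74.5 and 67.8 CPM in OPC and 4.70, 13.5 and 13.1 CPM in Astrocytes. Ccne1, cyclin E1, which drives entry into S phase, was 3.09-fold above Astrocytes in DRG neurons (log2 1.63, SE 0.401, adjusted p = 0.00644), and no DRG neuron library was as low as any Astrocytes library. The phosphatase gene Cdc25a was higher likewise (log2 1.14, SE 0.279, adjusted p = 0.00608). In DRG neurons over OPC neither was called (adjusted p = 0.0691 for Ccne1 and 0.137 for Cdc25a). Both were singled out after their values were seen. E2f8 had 0.203, 0.147 and 0.0516 CPM in DRG neurons, 62.6, 86.8 and 66.7 CPM in OPC and 5.10, 29.1 and 29.0 CPM in Astrocytes. Ccna2 had 2.30, 1.30 and 1.55 CPM in DRG neurons, 403, 558 and 395 CPM in OPC and 18.1, 185 and 133 CPM in Astrocytes. E2f8, a repressor E2F expressed in S phase, and Ccna2, cyclin A2, were 539-fold and 265-fold below OPC in DRG neurons (adjusted p = 2.73e-05 and 6.33e-05). The smallest called differences were those of Rb1, the retinoblastoma protein (log2 −0.94, SE 0.289, adjusted p = 0.0188), and E2f4 (log2 −1.02, SE 0.164, adjusted p = 6.04e-04).

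Of 15 other nucleotide enzymes, 9 were lower and 1 higher in DRG neurons than in OPC, 7 lower and 3 higher than in Astrocytes, and 9 higher and 1 lower in OPC than in Astrocytes. Against Astrocytes that is 46.7% lower and 20.0% higher in DRG neurons, where all tested genes had 32.8% and 27.4%. Against OPC it is 60.0% lower and 6.67% higher in DRG neurons, where all tested genes had 31.1% and 28.4%. In OPC over Astrocytes it is 60.0% higher and 6.67% lower, where all tested genes had 26.3% and 25.5%. Rrm2b had 59.1, 67.8 and 86.1 CPM in DRG neurons, 37.7, 29.1 and 16.2 CPM in OPC and 45.9, 35.0 and 39.7 CPM in Astrocytes. Rrm2b, the reductase subunit that serves DNA repair and mitochondrial DNA outside S phase, ran opposite to Rrm2: it was 2.57-fold above OPC in DRG neurons (log2 1.36, SE 0.303, adjusted p = 0.00385) and 1.77-fold higher than in Astrocytes (log2 0.82, SE 0.300, adjusted p = 0.0389). Its DRG neuron libraries lay above all glial libraries. Shmt1 had 0.711, 0.695 and 0.413 CPM in DRG neurons, 42.5, 88.8 and 75.0 CPM in OPC and 5.62, 13.0 and 9.15 CPM in Astrocytes. Shmt1, which supplies folate carbon for thymidylate synthesis, was 113-fold below OPC in DRG neurons (log2 −6.82, SE 0.489, adjusted p = 8.91e-06). Dck had 53.0, 70.1 and 61.9 CPM in DRG neurons, 132, 178 and 141 CPM in OPC and 20.4, 57.5 and 60.9 CPM in Astrocytes. Dck, deoxycytidine kinase, was below all OPC libraries in every DRG neuron library (log2 −1.29, SE 0.363, adjusted p = 0.0127) and overlapped Astrocytes. Dctd, the deoxycytidylate deaminase, and Nme2, a nucleoside diphosphate kinase, had log2 −4.15 and −1.03 in DRG neurons over OPC (adjusted p = 0.00131 and 0.0392).

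Of 17 mitosis genes, 17 were lower in DRG neurons than in OPC, 15 lower than in Astrocytes and 5 higher in OPC than in Astrocytes. These are the whole list, 88.2% and 29.4% of it, where 31.1%, 32.8% and 26.3% of all tested genes were called in the same directions. The last share is near that of all genes. The median log2 fold changes were −7.53, −6.05 and 1.49 in DRG neurons over OPC, DRG neurons over Astrocytes and OPC over Astrocytes. Their sums were 22.4, 18.2 and 14.6 CPM in DRG neurons, 3880, 6127 and 2755 CPM in OPC and 267, 2686 and 1695 CPM in Astrocytes. The DRG neuron sum was thus 0.433% of that of OPC, where that of the replication genes was 8.51%. In Astrocytes replicate 1 all 17 were the lowest of the 3 libraries, as were 6305 of all 14848 genes tested. The list's median log2 ratio to replicates 2 and 3 was −3.16. Ccnb1 had 0.711, 0.905 and 0.387 CPM in DRG neurons, 313, 441 and 377 CPM in OPC and 13.2, 148 and 97.9 CPM in Astrocytes. Mki67 had 3.15, 1.41 and 1.06 CPM in DRG neurons, 891, 1545 and 214 CPM in OPC and 36.4, 586 and 353 CPM in Astrocytes. Ccnb1, cyclin B1, and Mki67, the Ki-67 marker of dividing cells, were 559-fold and 477-fold below OPC in DRG neurons (adjusted p = 5.16e-05 and 3.38e-04). OPC replicate 3 was below Astrocytes replicates 2 and 3 for Mki67, and Astrocytes replicate 1 was the lowest glial library for both. The smallest differences of the list were those of Birc5, the survivin gene (log2 −5.90, SE 1.03, adjusted p = 9.93e-04) and Tpx2, a spindle assembly factor with 0, 2 and 2 reads in the DRG neuron libraries (adjusted p = 0.0173).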

How the data were processed

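The mRNA libraries were made with the Illumina TruSeq stranded mRNA kit after TRIzol extraction, per the labels' protocols. The submitters' processing notes name TopHat2, HTSeq and mm10; versions, counting mode and strand setting are not given in the sources used here. What was deposited were counts per RefSeq transcript, with 21.98% to 24.7% of the reads of a library listed as ambiguous, in lines kept out of all totals and tests. Reads shared by isoforms appear to be among them, so the 13 members with several accessions hold isoform-specific reads. Of 33787 accessions, 33315 were named by RefSeq GRCm38.p6 and 193 by GENCODE vM21 (279 had no name), and counts were summed per gene. Genes passing filterByExpr (minimum count 10) were tested with edgeR 4.0.16 (R 4.3.3) on all 9 libraries, TMM scaling and 1 coefficient per cell type, leaving 6 residual degrees of freedom, with Benjamini-Hochberg adjustment over 14848 genes. SE were computed back from the F statistic, and transcript lengths came from GENCODE vM21. Tests ran first on simulated data. Alternatives were RLE scaling, library size alone, DESeq2 1.42.0, no filter, the libraries compared only, a replicate block, leaving out each library, 2 pairs of libraries (the pair Astrocytes 1 and OPC 1 added after seeing the data), a length trend and 1 accession per gene. In each role the text gives every library for the member highest per length, those differing most and least between DRG neurons and OPC and any called against its role's majority; in each other list, for the 2 largest and 2 smallest called changes, or a summary of them; further genes were chosen after their values were seen. Members and lists were chosen with earlier results of these data known. The replicates are called biological in the labels, with no further detail on their source.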

Additional observations from a re-analysis of the deposited data

How the results depend on the processing

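Over 19 alternatives, the count of members lower in DRG neurons than in OPC ran from 37 to 40, that lower than in Astrocytes from 32 to 37 and that higher in OPC than in Astrocytes from 23 to 33. The low of 23, with 20 of the 28 calls kept, came without Astrocytes replicate 1 and OPC replicate 3, a pair that moved single values of OPC over Astrocytes by more than 1.5-fold. Scaling by library size alone shifted the median of all genes to −0.23 in DRG neurons over OPC and −0.39 in DRG neurons over Astrocytes, and RLE to 0.09 in DRG neurons over OPC. Same-numbered libraries correlated between −0.0357 and 0.1284 in their deviations, so the numbers were not taken as pairs; with the replicate block 39 members were lower in DRG neurons than in OPC, 35 lower and 1 higher than in Astrocytes, and 32 higher in OPC than in Astrocytes, with 39, 36 and 27 calls shared with the fit without it. The sign changed only for members with no call. In DRG neurons over Astrocytes these were Gins3, with 0.0753 (RLE), 0.0757 (DESeq2), 0.0780 (libraries compared), 0.0775 (replicate block), 0.0471 (length trend) and −0.30 to 0.18 with 1 library left out; Orc4, with −0.23 (library size), −0.0764 (length trend), −0.22 (1 accession), −0.0731 (without Astrocytes 1 and OPC 1) and −0.0778 to 0.15 with 1 left out; and Orc2, with 0.0200 (replicate block) and −0.51 to 0.15 with 1 left out. In DRG neurons over OPC it was Orc4, with 0.17 (RLE), 0.17 (DESeq2), 0.0132 (replicate block), 0.24 (without Astrocytes 1 and OPC 1) and −0.14 to 0.24 with 1 left out. In OPC over Astrocytes Orc4 had −0.0635 (RLE), −0.0636 (library size), −0.0622 (DESeq2), −0.0827 (libraries compared), −0.0580 (length trend), −0.32 (without Astrocytes 1 and OPC 1) and −0.21 to 0.19 with 1 left out. Without Astrocytes 1 and OPC 3, Orc2 had −0.0438 and Tyms −0.21; with 1 library left out, Orc2 had −0.0420 to 0.77, Gins4 −0.0142 to 0.39 and Tyms −0.0324 to 0.81. The causes were not tested. Values of Cdc6, Tk1 and Tyms in DRG neurons rest on a few reads, which are isoform-specific. With the libraries compared only, Cdc6 and Tyms were not tested in DRG neurons over Astrocytes.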
